A study of Mus musculus with 8 samples.

Results

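BC018473, annotated as a gene with no named function, and 6 genes beside it on mouse chromosome 11 were followed across cells sorted from tail tumors of TAX-LUC mice that were IL-15-/- or IL-15+/+. The labels call the CD16/32HI cells malignant and the CD16/32LO cells tumor infiltrating. In chromosome order the 7 genes are Cygb, Prcd, Snhg16, St6galnac2, BC018473, St6galnac1 and Mxra7. They are 7 of the 19938 genes measured by at least 1 probe set annotated to that gene alone, and each has exactly 1 probe set. They were chosen because several of them were measured lower together in IL-15-/- arrays, so their values by genotype are given as a description, with no test and no support drawn from them. The comparison between the sorted populations was not part of that choice and was tested.

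St6galnac1 and St6galnac2 encode sialyltransferases of the Golgi apparatus that add sialic acid to the first N-acetylgalactosamine of mucin-type O-glycans on serine and threonine. Where that sugar is not yet extended, capping keeps it from growing into a longer chain. The structure made in that case, the sialyl-Tn antigen, is best known from carcinomas. Of the other genes in this stretch, Cygb encodes cytoglobin, a heme globin of fibroblast-like cells, Prcd encodes a small membrane protein of photoreceptor discs, Snhg16 is a noncoding host of snoRNAs, and Mxra7 encodes a protein associated with matrix remodelling. Interleukin-15 is a cytokine that NK cells and memory CD8 T cells depend on.

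RNA was hybridised to 8 arrays, 2 in each of 4 groups: CD16/32HI IL-15-/-, CD16/32HI IL-15+/+, CD16/32LO IL-15-/- and CD16/32LO IL-15+/+. All 4 mice carried the Tax oncogene of HTLV-1 under the granzyme B promoter and a luciferase reporter, on a mixed C57BL/6 and FVB background, and each gave 1 array per population. Age was 14 months for replicate 1 and 12 months for replicate 2, in both genotypes. In the IL-15-/- mice a neomycin cassette takes the place of part of Il15 in every cell. Values are log2 RMA signals, and array medians were 5.62 to 5.93. The IL-15-/- medians were on average higher by 0.133 in CD16/32HI and by 0.119 in CD16/32LO cells, and a difference of that size is therefore small here. The shift lay mainly in replicate 2, with medians of 5.62 and 5.65 in IL-15+/+ and 5.86 and 5.93 in IL-15-/- arrays (CD16/32HI, then CD16/32LO). The 4 medians of replicate 1 were 5.88 to 5.93. In replicate 2 the shift is thus larger than these averages.

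In the IL-15-/- mouse of replicate 1 the populations ran opposite to those of the other 3 mice in macrophage and neutrophil markers. Its array labelled CD16/32HI had a mean of 8.77 over 7 macrophage markers and 10.08 over 8 neutrophil markers, and its array labelled CD16/32LO had 10.68 and 7.59. The other CD16/32HI arrays were at 10.22 to 10.90 and 7.20 to 7.60, and the other CD16/32LO arrays at 8.76 to 8.94 and 9.30 to 9.96. The labels were kept, and values without this mouse are also given for the members and for the glycan, globin and snoRNA host genes, where each population has 1 IL-15-/- array. Xist, the RNA of the inactive X chromosome, lay at 10.08 to 10.75 in the 4 IL-15-/- arrays and at 3.92 to 4.64 in the 4 IL-15+/+ arrays, so sex and genotype cannot be told apart. The strain was a cross of IL-15-/- mice on C57BL/6 with TAX-LUC mice on the mixed background. Which strain's copy of this stretch each mouse carried is not given in the labels. A strain difference between the groups therefore cannot be told apart from genotype either, and was not tested. The labels name the CD16/32HI tissue malignant large granular lymphocytes. The NK cell receptor gene Ncr1 was at 4.10 to 4.47 in IL-15-/- and 4.18 to 5.15 in IL-15+/+ arrays, below every array median. Klrd1, another gene of NK and cytotoxic cells, was at 6.26 to 7.04 in IL-15-/- and 7.76 to 9.37 in IL-15+/+ arrays, above every array median. Gzma was at 4.01 to 4.57 in IL-15-/- arrays, as low as Ncr1, and at 5.31 to 8.80 in IL-15+/+ arrays. These ranges cover both populations. In IL-15+/+ mice CD16/32HI minus CD16/32LO was -1.23 for Klrd1 and -2.70 for Gzma, so both were higher in CD16/32LO cells. Which cells the CD16/32HI arrays hold was not tested.

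Promoter sequences, 250 bases before to 50 bases after an annotated start, were found in RefSeq (GRCm38.p6) for 3 of the 7 genes, Prcd, Snhg16 and Mxra7. They are shown because Prcd and Snhg16 are neighbours on the chromosome that differed in their values, with Prcd lower in all 4 IL-15-/- arrays and Snhg16 overlapping, while Mxra7 closes the stretch. CG dinucleotides are in capitals. The promoter of Prcd (chr11:116656858-116657157, plus strand) holds 5 of them, that of Snhg16 (chr11:116671410-116671709, plus strand) 22, and that of the Mxra7 start with more of them (chr11:116827997-116828296, minus strand) 25.
Prcd: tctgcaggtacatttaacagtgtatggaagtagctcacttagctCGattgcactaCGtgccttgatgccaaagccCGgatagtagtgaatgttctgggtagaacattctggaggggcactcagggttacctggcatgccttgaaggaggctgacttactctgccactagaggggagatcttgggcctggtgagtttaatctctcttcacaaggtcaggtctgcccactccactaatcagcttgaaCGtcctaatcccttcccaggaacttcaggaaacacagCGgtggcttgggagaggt
Snhg16: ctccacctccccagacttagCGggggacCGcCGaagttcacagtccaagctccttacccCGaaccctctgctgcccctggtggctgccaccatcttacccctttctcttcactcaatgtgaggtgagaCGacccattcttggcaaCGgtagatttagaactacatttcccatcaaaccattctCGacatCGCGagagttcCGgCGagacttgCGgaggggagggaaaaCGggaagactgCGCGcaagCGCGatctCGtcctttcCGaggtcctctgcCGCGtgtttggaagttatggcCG
Mxra7: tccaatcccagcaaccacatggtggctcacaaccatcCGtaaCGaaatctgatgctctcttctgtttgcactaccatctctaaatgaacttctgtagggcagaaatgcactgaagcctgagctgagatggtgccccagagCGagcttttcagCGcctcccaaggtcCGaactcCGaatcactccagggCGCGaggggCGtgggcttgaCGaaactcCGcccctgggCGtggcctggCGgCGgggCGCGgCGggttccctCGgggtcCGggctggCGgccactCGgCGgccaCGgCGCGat
Of all 32851 promoters in the table, 38.0% hold fewer CG dinucleotides than that of Prcd, 76.9% fewer than that of Snhg16 and 81.6% fewer than that of Mxra7. Searched on both strands, TATAAA and the STAT motif TTCNNNGAA were in none of the 3, and 13.6% and 8.30% of all promoters hold them. CCAAT (in 37.4% of all promoters) and GGGCGG (in 35.7%) were each found 1 time, both in the Mxra7 promoter. These letters are a description of the windows only.

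BC018473 was low in every IL-15-/- array and far higher in every IL-15+/+ array. In CD16/32HI cells its signal was 5.12 and 4.61 in IL-15-/- tumors, against 8.08 and 9.19 in IL-15+/+ tumors. In CD16/32LO cells it was 5.03 and 5.04 in IL-15-/- tumors, against 11.09 and 11.95 in IL-15+/+ tumors. All 4 IL-15-/- arrays were below their array median, and the 4 IL-15+/+ arrays differed among themselves by 3.87 on the log2 scale. The files hold no detection values, so whether these low signals stood above background is not known. The groups did not overlap, with a gap of 2.96 between the highest IL-15-/- and the lowest IL-15+/+ array. The mean difference was -3.77 (SE 0.414, n = 2 each) in CD16/32HI cells and -6.49 (SE 0.414, n = 2 each) in CD16/32LO cells. As ratios of measured signals, which are not RNA folds if the IL-15-/- signals are background, these are 13.6 and 89.7. In IL-15-/- arrays 25.3% to 32.4% of all 35557 probe sets had a signal at or below that of BC018473, against 83.9% to 98.8% in IL-15+/+ arrays. Of the 120 probe sets on which all 4 IL-15-/- arrays were lower, it had the second largest mean difference in signal (-5.13), after the Y-linked Eif2s3y (-6.23).

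The difference was as large without the arrays that ran opposite to their labels. Averaged over both arrays of a mouse, which does not depend on the population labels, BC018473 was at 5.07 and 4.82 in the IL-15-/- mice, against 9.58 and 10.57 in the IL-15+/+ mice. Without the IL-15-/- mouse of replicate 1 the differences were -4.02 in CD16/32HI and -6.48 in CD16/32LO cells. Within replicate 1 alone, which includes the arrays that ran opposite, they were -2.96 and -6.06. Its 4 arrays are taken as 1 normalization set because they share exactly equal values, and the labels name no such set. By the same sign the IL-15+/+ and the IL-15-/- arrays of replicate 2 were separate sets. Wherever the IL-15-/- mouse of replicate 1 is left out, the IL-15-/- arrays kept are thus a set of their own. In those values genotype and normalization set cannot be told apart.

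**Figure D1:**
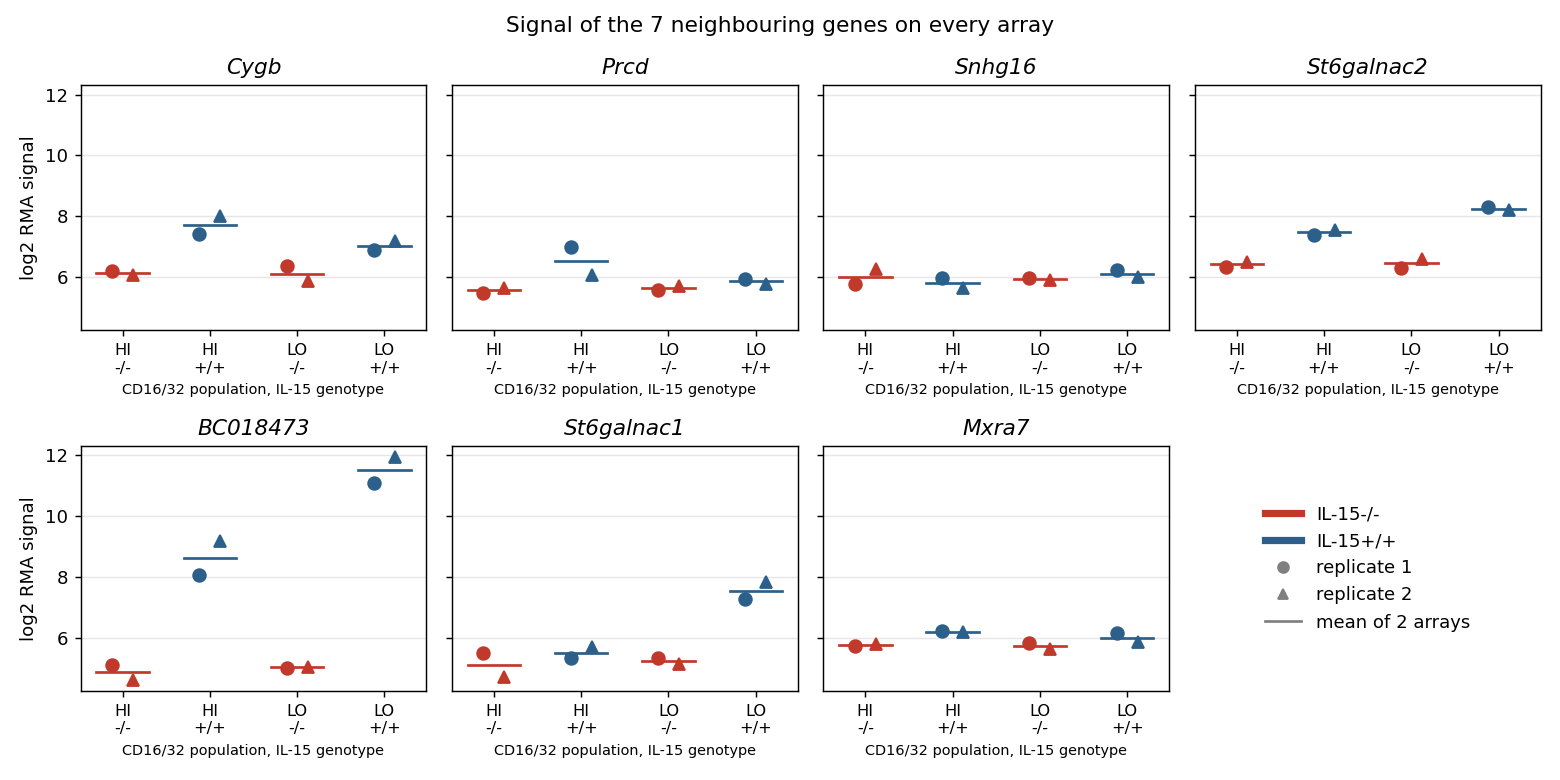
Log2 RMA signal (y axis) of the 7 genes on each of the 8 arrays, by CD16/32 population and IL-15 genotype (x axis), with circles for replicate 1, triangles for replicate 2 and a line at the mean of 2 arrays. BC018473 lies at 4.61 to 5.12 in the IL-15-/- arrays and at 8.08 to 11.95 in the IL-15+/+ arrays, and Snhg16 overlaps between the genotypes.

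The sialyltransferase gene St6galnac2, which lies on one side of BC018473, showed the same order of groups on a smaller scale. Its CD16/32HI signal was 6.33 and 6.51 in IL-15-/- tumors, against 7.39 and 7.55 in IL-15+/+ tumors. In CD16/32LO cells it was 6.31 and 6.60 in IL-15-/- tumors, against 8.30 and 8.21 in IL-15+/+ tumors. Replicates of a group were within 0.288 of each other, and no IL-15-/- array reached an IL-15+/+ array. The mean differences were -1.05 (SE 0.223) in CD16/32HI and -1.80 (SE 0.223) in CD16/32LO cells, or 2.07-fold and 3.48-fold lower. Leaving out the IL-15-/- mouse whose arrays ran opposite to their labels gave -0.96 and -1.65.

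St6galnac1, on the other side of BC018473, separated the genotypes in CD16/32LO cells but not in CD16/32HI cells. In CD16/32LO cells it was at 5.33 and 5.15 in IL-15-/- tumors, against 7.26 and 7.83 in IL-15+/+ tumors, a difference of -2.30 (SE 0.326) or 4.94-fold. In CD16/32HI cells the groups overlapped, with 5.52 and 4.72 in IL-15-/- tumors and 5.33 and 5.69 in IL-15+/+ tumors. The difference there was -0.39 (SE 0.326), and within replicate 1 it had the other sign (0.19). The overlap comes from the IL-15-/- array of replicate 1 (5.52). Without that mouse the differences were -0.79 and -2.39, and 6 rather than 5 of the 7 genes separated by genotype over all arrays kept.

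Cygb, the cytoglobin gene at the other end of the stretch, was also lower in both populations, but more so in CD16/32HI cells. In CD16/32HI cells it was at 6.20 and 6.07 in IL-15-/- tumors, against 7.43 and 8.0 in IL-15+/+ tumors. In CD16/32LO cells it was at 6.37 and 5.87 in IL-15-/- tumors, against 6.88 and 7.18 in IL-15+/+ tumors. The genotypes did not overlap, with a gap of 0.51 between the nearest arrays. The mean differences were -1.58 (SE 0.284) and -0.91 (SE 0.284), or 3.0-fold and 1.88-fold lower, and leaving out that mouse gave -1.65 and -1.16. Of 8 fibroblast markers, Dcn differed by 2.12 and 1.84, with the IL-15-/- arrays spread from 5.75 to 10.45. Without the IL-15-/- mouse of replicate 1 it differed by 3.87 and 4.18. With all arrays the other 7 lay between -0.11 and 0.30 in CD16/32HI and between -0.01 and 0.56 in CD16/32LO cells. The list medians were 0.15 and 0.17, near those of all probe sets (0.09 and 0.13). Their part in the values of Cygb was not tested.

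Prcd, whose annotated span overlaps that of Cygb in RefSeq, was lower mainly through 1 array. Its CD16/32HI signal was 5.50 and 5.65 in IL-15-/- tumors, against 7.0 and 6.08 in IL-15+/+ tumors. In CD16/32LO cells it was 5.59 and 5.71 in IL-15-/- tumors, against 5.95 and 5.77 in IL-15+/+ tumors. The arrays still separated by genotype, by 0.058. The mean differences were -0.97 (SE 0.307) in CD16/32HI and -0.21 (SE 0.307) in CD16/32LO cells, and the first was -0.51 when the highest array, of the replicate 1 IL-15+/+ mouse, was left out. Leaving out the opposite-running mouse gave -0.89 and -0.15.

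Mxra7 and Snhg16 differed least. Mxra7 was at 5.63 to 5.82 in the 4 IL-15-/- arrays and 5.86 to 6.22 in the 4 IL-15+/+ arrays, with mean differences of -0.43 (SE 0.221) and -0.29 (SE 0.221) in CD16/32HI and CD16/32LO cells. These are at most a few times the shift of the array medians. Snhg16, which lies between Prcd and St6galnac2, was at 5.77 to 6.26 in IL-15-/- and 5.65 to 6.23 in IL-15+/+ arrays. Its differences of 0.21 (SE 0.253) and -0.17 (SE 0.253) were smaller than their errors. With the opposite-running mouse left out the differences were -0.39 and -0.38 for Mxra7 and 0.46 and -0.20 for Snhg16.

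Counted over the 7 genes, both IL-15-/- arrays were below both IL-15+/+ arrays for 5 in CD16/32HI cells and for 7 in CD16/32LO cells. Over all 23410 probe sets with a gene symbol these shares were 11.0% and 4.81%. All 4 IL-15-/- arrays were below all 4 IL-15+/+ arrays for 5 of the 7 genes, against 0.513% of all probe sets, and the opposite order held for 0 of the 7 and 3.21% of all. The genes were selected on this contrast, so nothing is read from these counts.

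The genes beyond the ends of the stretch were compared in the same way. The order of genes was taken from RefSeq, with the next 20 measured genes on each side. With the values as deposited, none of these 40 genes had all 4 IL-15-/- arrays on one side of all 4 IL-15+/+ arrays, and limma called 0 of them in either population (5 called of 23410, or 0.0214%, in CD16/32HI and 8, or 0.0342%, in CD16/32LO cells). Of all probe sets 0.513% had all 4 IL-15-/- arrays lower and 3.21% had them higher, so these counts say little about 40 genes. The median differences of the 40 genes were 0.09 in CD16/32HI and 0.10 in CD16/32LO cells, beside 0.09 and 0.13 over all probe sets. With the opposite-running mouse left out these medians were 0.19 and 0.11, beside 0.11 and 0.13. Then 1 of the 40 genes separated with lower values in IL-15-/- arrays, against 852 of 23410 probe sets. It was 2 of 40 with all arrays after centring them on their medians, and also after quantile normalization. No share over all probe sets is given for those 2 scalings. Within replicate 1 alone, with 2 arrays a genotype, 9 of 40 separated with lower values in IL-15-/- arrays (22.5%), against 13.7% of all probe sets. Next to Cygb, the inactive rhomboid gene Rhbdf2 differed by 0.05 in CD16/32HI and 0.10 in CD16/32LO cells and the melatonin synthesis gene Aanat by -0.08 and -0.05. The ubiquitin-conjugating enzyme gene Ube2o differed by 0.06 and 0.05. Beyond Mxra7, the oxygenase gene Jmjd6 differed by 0.32 and -0.02, the methyltransferase-like gene Mettl23 by 0.07 and 0.26, and the splicing factor gene Srsf2 by 0.07 and 0.34. Averaged over the populations the 40 genes ran between -0.27 (Birc5) and 0.71 (Mfsd11). Snhg16 was within that range at 0.02, and the other members were between -5.13 and -0.36. The members were selected on this contrast and the 40 genes were not, so nothing is read from the 2 ranges. In CD16/32HI cells Birc5, a gene of dividing cells, differed by -1.04, and without the IL-15-/- mouse of replicate 1 by 0.37. Between Cygb and Mxra7 the annotation also places Snord1a, Snord1b, Snord1c and Gm11735, none of which was measured by itself.

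**Figure D2:**
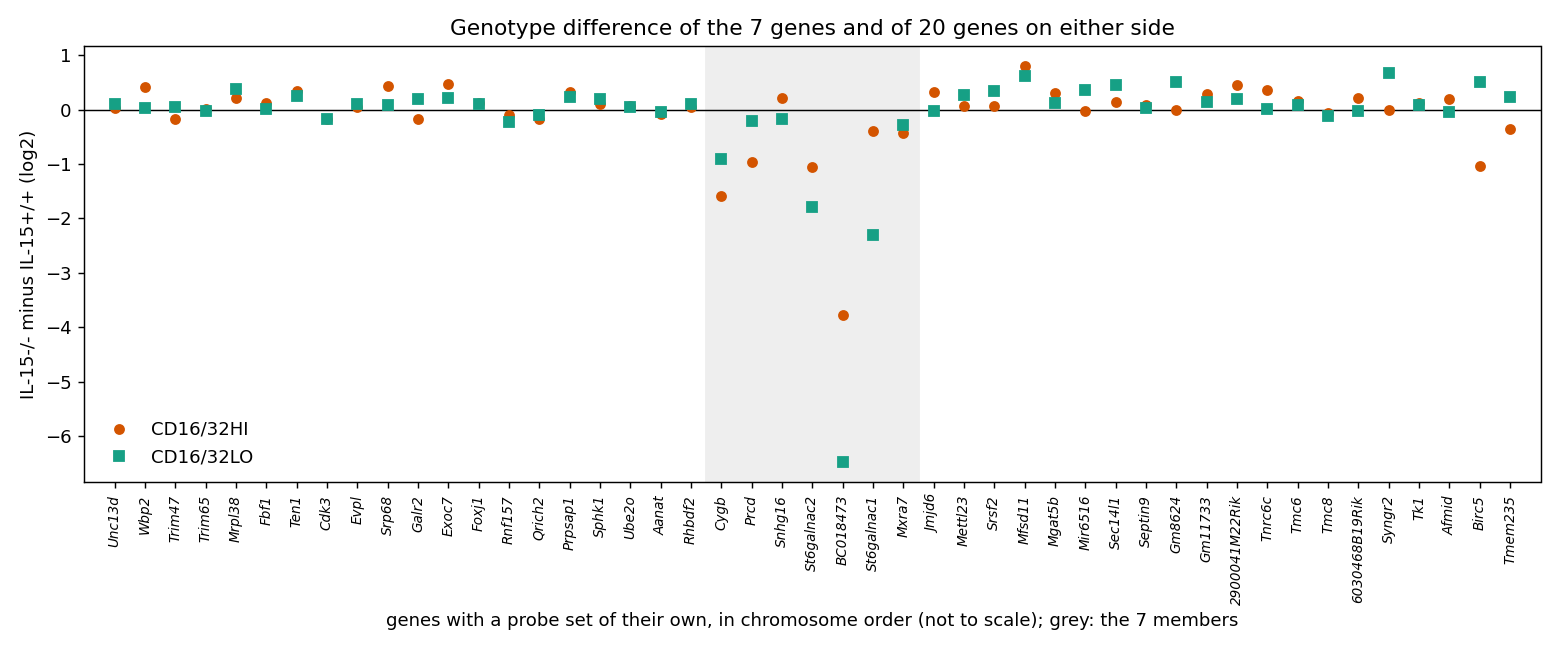
Difference between IL-15-/- and IL-15+/+ tumors on the log2 scale (y axis, mean of 2 arrays minus mean of 2 arrays) for the 7 genes (grey band) and 20 genes on either side in chromosome order (x axis, not to scale), with circles for CD16/32HI and squares for CD16/32LO cells. BC018473 is at -3.77 and -6.49, and the medians of the 40 flanking genes are at 0.09 and 0.10.

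Between the sorted populations the 7 genes showed different patterns in IL-15+/+ mice. Here differences are CD16/32HI minus CD16/32LO within a mouse. BC018473 differed by -3.0 and -2.76 in the IL-15+/+ mice, and was thus 7.37-fold higher on average in CD16/32LO cells. St6galnac1 differed by -1.94 and -2.14 (4.11-fold higher in CD16/32LO cells) and St6galnac2 by -0.91 and -0.66 (1.72-fold). Cygb and Prcd ran the other way, with 0.56 and 0.82 for Cygb and 1.05 and 0.32 for Prcd. Mxra7 differed by 0.07 and 0.32 and Snhg16 by -0.27 and -0.36.

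In the IL-15-/- mice the same differences were close to 0. BC018473 and St6galnac1 lay below the array median on every IL-15-/- array. If those signals are background, a population difference could not appear there. BC018473 differed by 0.10 in the mouse of replicate 1 and by -0.42 in that of replicate 2, St6galnac1 by 0.18 and -0.43, and St6galnac2 by 0.02 and -0.09. Cygb differed by -0.17 and 0.19, Prcd by -0.10 and -0.06. The signs in the mouse of replicate 1 would be the opposite if its population labels were turned.

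**Figure D3:**
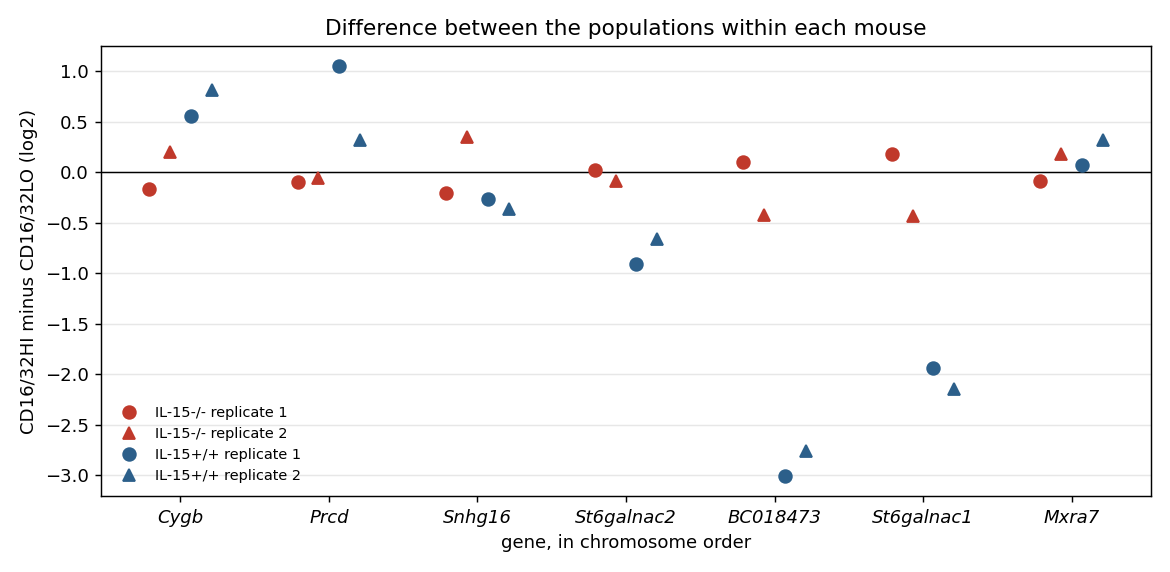
CD16/32HI minus CD16/32LO on the log2 scale (y axis) within each of the 4 mice for the 7 genes (x axis), with IL-15-/- mice in red, IL-15+/+ mice in blue, circles for replicate 1 and triangles for replicate 2. BC018473, St6galnac1 and St6galnac2 are below 0 in both IL-15+/+ mice, down to -3.0, and between -0.43 and 0.18 in the IL-15-/- mice.

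Tested within mice by limma, the population difference over all 4 mice was called for none of the 7 genes and for 0 of 23410 probe sets (0%), with 276 at an unadjusted p under 0.05. BC018473 differed by -1.52 (SE 0.59, adjusted p = 0.923 from limma) and St6galnac1 by -1.08 (SE 0.429, adjusted p = 0.923 from limma). Without the IL-15-/- mouse of replicate 1, 2 of the 7 genes were called, both lower in CD16/32HI cells, against a background of 7.33% called in that direction. They were BC018473, at -2.06 (SE 0.414, adjusted p = 0.011 from limma), and St6galnac1, at -1.5 (SE 0.29, adjusted p = 0.00908 from limma). St6galnac2 (-0.55, adjusted p = 0.0769 from limma) and Cygb (0.52, adjusted p = 0.0649) did not pass.

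Within the IL-15+/+ mice alone, a comparison added after the data were seen, the difference was not called for any of the 7 genes with all arrays in the fit (adjusted p = 0.621 from limma for BC018473, St6galnac1, St6galnac2, Cygb and Prcd). Leaving out the replicate 1 mouse that is IL-15-/-, which changes only the shared spread, it was called for 3 of the 7, all lower in CD16/32HI cells, against 4.64% of probe sets called in that direction. BC018473 was at -2.88 (SE 0.187, adjusted p = 0.000205 from limma), St6galnac1 at -2.04 (SE 0.186, adjusted p = 0.000508) and St6galnac2 at -0.78 (SE 0.187, adjusted p = 0.0358). Prcd, at 0.68 (adjusted p = 0.0993 from limma), and Cygb, at 0.69 (adjusted p = 0.0587), did not pass. In that fit both St6galnac genes, like BC018473, were higher in the CD16/32LO cells of the IL-15+/+ mice. Its residual spread comes from the 2 IL-15+/+ mice alone, with 1 degree of freedom. The nearly equal errors thus rest mostly on limma's spread over all genes, and the adjusted p-values say little of the spread of a single gene.

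The difference between the genotypes was itself compared between the populations, within mice. Limma called 0 of the 7 genes and 0 of 23410 probe sets (0%), with 639 at an unadjusted p under 0.05. BC018473 had the difference of differences with the largest size among the 7, 2.72 (SE 0.29, unadjusted p = 0.000443 and adjusted p = 0.883 from limma), followed by St6galnac1 at 1.91 (SE 0.307, adjusted p = 0.883 from limma). St6galnac2 was at 0.75, Cygb at -0.67 and Prcd at -0.76, none called. Without the IL-15-/- mouse of replicate 1 the values for BC018473 and St6galnac1 were 2.46 (adjusted p = 0.474 from limma) and 1.61 (adjusted p = 0.999). That the genotypes differ by more in CD16/32LO than in CD16/32HI cells was therefore not shown by this test. BC018473 and St6galnac1 were also below the median of every IL-15-/- array. Their values here nearly repeat their IL-15+/+ population differences (-2.88 and -2.04) with the sign turned.

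T and NK cell markers were lower by value in IL-15-/- tumors, as BC018473 was. The mean log2 signal over 11 T and NK cell genes in CD16/32HI cells was 5.50 and 5.33 in IL-15-/- tumors, against 6.31 and 5.82 in IL-15+/+ tumors. In CD16/32LO cells it was 5.38 and 5.91 in IL-15-/- tumors, against 7.83 and 7.52 in IL-15+/+ tumors. Of the 11 genes, 0 were called in CD16/32HI and 2 in CD16/32LO cells, the T cell coreceptor gene Cd8b1 (-2.45, adjusted p = 0.0193 from limma) and the granule protease gene Gzma (-3.61, adjusted p = 0.0358 from limma), against 0.0342% of all probe sets called in CD16/32LO cells. For 4 of the 11 all IL-15-/- arrays were lower, against 0.513% of all probe sets. The mean of 4 B cell markers was 5.72 and 5.25 in IL-15-/- and 5.49 and 5.49 in IL-15+/+ tumors in CD16/32HI cells, and 5.36 and 6.35 against 7.10 and 6.37 in CD16/32LO cells. The B cell means thus overlapped in CD16/32HI cells, and were nearly equal between the replicate 2 mice in CD16/32LO cells. Their part in the values of BC018473 and the St6galnac genes was not tested, and in sorted bulk RNA fewer cells of a type and less RNA per cell cannot be told apart. Within each population the T and NK cell marker means of the genotypes did not overlap. Only across populations did an IL-15-/- array, CD16/32LO of replicate 2 (5.91), exceed an IL-15+/+ array, CD16/32HI of replicate 2 (5.82). BC018473 was at 5.04 and 9.19 on these arrays, and no cause was tested with this pair.

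**Figure D4:**
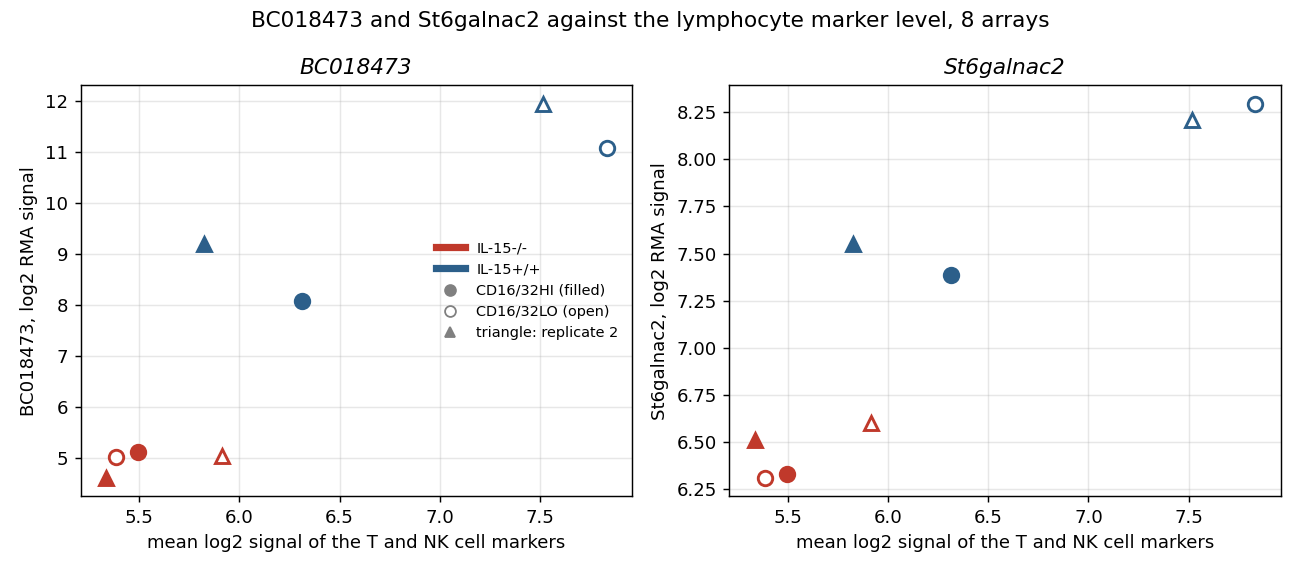
Log2 RMA signal of BC018473 and of St6galnac2 (y axes) against the mean log2 signal of 11 T and NK cell markers (x axes) on the 8 arrays, red for IL-15-/-, blue for IL-15+/+, filled for CD16/32HI, open for CD16/32LO and triangles for replicate 2. The CD16/32LO IL-15-/- array at a marker mean of 5.91 has BC018473 at 5.04, and the CD16/32HI IL-15+/+ array at 5.82 has it at 9.19. Within each population the marker means of the genotypes do not overlap.

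The genes whose signal followed BC018473 most closely were taken from 5839 other genes that varied by at least 1 on the log2 scale. These correlations are over 8 arrays that fall into the 2 genotypes, and are a description only. St6galnac2 was the first (r = 0.98). It was followed by the lymphocyte chemokine gene Xcl1 (0.96), the Y-linked Kdm5d (0.96), the NK cell receptor gene Klrd1 (0.96), the olfactory receptor gene Olfr164 (0.95), Sh2d1a (0.93), Nkg7 (0.92) and Samd3 (0.92). Most opposed were Marveld2 (-0.94), Xist (-0.94), Mtmr9 (-0.93) and Insig1 (-0.93). Of these 12 genes only St6galnac2 is on chromosome 11. Xcl1 was at 5.73 to 5.99 in IL-15-/- and 6.53 to 8.79 in IL-15+/+ arrays, and Klrd1 at 6.26 to 7.04 in IL-15-/- and 7.76 to 9.37 in IL-15+/+ arrays. Among the members St6galnac1 had r = 0.89, Cygb 0.72, Mxra7 0.62, Prcd 0.34 and Snhg16 0.06. Over the 4 IL-15+/+ arrays alone the order split, with St6galnac1 at 0.99 and St6galnac2 at 0.95 but Cygb at -0.61, Mxra7 at -0.81 and Prcd at -0.88.

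The 18 other sialyltransferases measured had median differences of -0.04 in CD16/32HI and 0.05 in CD16/32LO cells, beside 0.09 and 0.13 over all probe sets. They were -0.01 in both with the opposite-running mouse, the IL-15-/- one of replicate 1, left out. Limma called 0 of the 18 in either population, and in 0 were all 4 IL-15-/- arrays lower, which with backgrounds of 0.0214%, 0.0342% and 0.513% says little about 18 genes. Those with the largest mean differences had positive ones in most comparisons. St3gal5, which makes the ganglioside GM3, differed by 0.53 in CD16/32HI and 0.49 in CD16/32LO cells (0.52 and 1.09 without that mouse), and St6galnac4 by 0.70 and 0.29 (0.87 and 0.24). St3gal1, which sialylates the core 1 O-glycan, differed by 0.91 and -0.09 (0.21 and 0.49), and St6galnac3 by 0.18 and 0.43 (0.13 and 0.58). All 4 IL-15-/- arrays were above the 4 IL-15+/+ arrays for 2 of the 18, against 3.21% of all probe sets. These were St6galnac3, at 4.85 to 5.15 in IL-15-/- and 4.29 to 4.85 in IL-15+/+ arrays, and St6galnac4, at 5.70 to 6.06 and 4.70 to 5.70, with the nearest arrays alike to the digits given.

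For the remaining lists each pair of values is CD16/32HI and then CD16/32LO, with the pair in brackets leaving out the IL-15-/- mouse of replicate 1. Of 13 genes that supply and remove sialic acid 0 were called, with medians of 0.03 and 0.16 (0.23 and 0.18). Cmas, which activates sialic acid, differed by 0.74 and 0.15 (0.46 and 0.59), and Nans, which synthesises it, by 0.48 and 0.37 (0.76 and 0.51). Cmah, which converts it to the glycolyl form, differed by 0.62 and -1.13 (-0.40 and -0.60), and the sialidase gene Neu1 by 0.25 and 0.24 (-0.01 and 0.33). The sign of Cmah and of Neu1 in CD16/32HI cells thus turned without that mouse.

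Of 16 genes that build mucin-type O-glycans 0 were called, with medians of 0.23 and 0.26 (0.36 and 0.20). The initiating transferase gene Galnt6 differed by 0.80 and 0.42 (1.16 and 0.38), Galnt4 by 0.56 and 0.39 (0.70 and 0.50) and Galnt11 by 0.42 and 0.51 (0.84 and 0.35). The core 2 branching enzyme gene Gcnt1 differed by 1.01 and -0.07 (0.29 and 0.59). Galnt4 was the gene of this list with all IL-15-/- arrays (7.85 to 8.15) above all IL-15+/+ arrays (7.31 to 7.71).

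Of the 18 carriers and readers of sialylated glycans 16 were measured and 0 called, with medians of 0.39 and -0.10 (0.11 and 0.07). The mucin gene Muc1 differed by 1.19 and 0.89 (0.22 and 2.05) and the adhesion receptor gene Cd44 by 1.02 and -0.05 (0.40 and 0.49). The sialic acid receptor gene Cd33 differed by 1.09 and -0.34 (0.49 and 0.08), and Cd24a, which encodes a mucin-like protein, by 0.56 and -0.10 (0.22 and 0.34). In CD16/32HI cells the differences of these 4 genes were smaller by more than 1.5 times without that mouse.

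Relatives of Cygb and Snhg16 gave no call. Of 9 globin genes 5 were measured, with Hbb-bh1 at 0.39 and 0.10 (0.40 and 0.14), neuroglobin (Ngb) at 0.43 and -0.12 (0.43 and -0.20), Hba-x at -0.13 and -0.15 (-0.25 and -0.14) and Hbb-y at 0.02 and -0.05 (0.07 and -0.15). Of 17 snoRNA host genes 5 were measured, with Snhg5 at -0.09 and 0.48 (0.17 and 0.27), Gas5 at -0.01 and 0.19 (0.09 and 0.13), Snhg15 at 0.21 and -0.06 (0.23 and -0.18) and Snhg17 at -0.14 and 0.06 (-0.22 and 0.30).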

How the data were processed

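Both sorted populations of the tumors of 4 mice were measured on 8 Affymetrix 1.0ST arrays. Each deposited value is the log2 signal of 1 probe set, which the authors background corrected, normalized and summarized with RMA in Affymetrix Expression Console, and no other version is given in the sources used here. Exactly equal values (11 to 106 a pair of arrays) occurred within 3 sets of arrays, the 4 of replicate 1, the IL-15+/+ of replicate 2 and the IL-15-/- of replicate 2, and 0 times between sets. Groups follow the labels. Genotype p-values rest on 1 spread pooled over 4 groups of 2 arrays, with the 2 arrays of a mouse treated as independent. Population and interaction p-values rest on the spread of the within-mouse differences between populations. In all fits limma draws the spread of a gene toward that of all genes. Limma (3.58.1, R 4.3.3) was fitted on the 23410 probe sets with a gene symbol, 21789 of them with 1 gene. Genotype used 1 model over 4 groups, and population and its interaction used mouse as a block, since both arrays of a number are taken as 1 animal of the stated age (deviations correlated at 0.37 in IL-15+/+ and -0.45 in IL-15-/- mice). Benjamini-Hochberg adjusted p under 0.05 was a call, and fits were checked on simulated data. The members and lists were chosen with earlier results of these data known. Named were all members, the 8 most and 4 least alike genes, the 3 nearest neighbours on each side and extremes, and in each list the called genes or else the 4 with the largest mean difference, at the probe set with the highest mean. RefSeq (GRCm38.p6) gave order and promoters. Alternatives were other scalings, filters, blocks and left-out arrays.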

Additional observations from a re-analysis of the deposited data

Results flagged for a closer look

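By the deposited labels, Prcd was the 1 member whose population difference had opposite signs in every mouse of the genotypes. CD16/32HI minus CD16/32LO was -0.10 and -0.06 in the IL-15-/- mice, against 1.05 and 0.32 in the IL-15+/+ mice, a difference of differences of -0.76. It was not called (adjusted p = 0.883 from limma), and the IL-15-/- values are within 0.10 of 0. The first value is of the mouse whose arrays ran opposite to their labels. With its labels turned the value is 0.10, the sign of the IL-15+/+ mice, and the opposition of signs is gone. Groups of 2 arrays were too small to look for single outlying arrays.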

How the results depend on the processing

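BC018473 was lower in IL-15-/- cells under all 14 alternatives in each population, between -4.33 and -2.96 in CD16/32HI and between -6.92 and -5.87 in CD16/32LO cells. St6galnac2, Cygb, Prcd and Mxra7 were also lower in all 14 in each population. In CD16/32HI cells St6galnac1 was lower in 11 of 14 and Snhg16 in 3. With 1 array left out BC018473 lay between -4.33 and -3.21 and between -6.92 and -6.06. A block for the normalization set gave -3.15 and -5.87, and replicate 1 alone -2.96 and -6.06. With 1 array left out, 5 to 6 members separated by genotype, 2 to 4 genes were called between the genotypes in CD16/32HI and 3 to 11 in CD16/32LO cells, 0 to 3205 between populations and 0 to 2680 in the interaction. The 2680 arose when an array of the replicate 2 IL-15-/- mouse was left out, either one, where BC018473 (2.98, adjusted p = 0.000577 from limma) and St6galnac1 (2.22, adjusted p = 0.00243) were called. That fit rests on the IL-15-/- mouse whose populations ran opposite to their labels. Leaving out both arrays of that mouse gave 8 genes in CD16/32HI, 20 in CD16/32LO cells and 3205 between populations. The replicate block gave 3 and 7 genes between the genotypes with the same differences. Ages and replicate numbers alone pair the genotypes (correlations 0.06 and 0.14). The block for the normalization set gave 0 and 2 genes, and the filter on low means 3 in CD16/32HI cells. Crossing the numbers of the IL-15-/- arrays, an alternative chosen after seeing the data, gave 166 interaction calls. The causes of these changes were not tested. Averaging a gene's probe sets could not be run, since each member has 1. With 2 arrays a group, small differences such as those of Mxra7 and Snhg16 cannot be resolved.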
